A study of Mus musculus with 2 samples.

Results

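The inflammatory monocytes described here were the cells that the deposited cell annotation calls Monocyte (Inflammatory), 276 of the 3494 annotated barcodes of the day 2 library and 84 of the 3385 of the day 7 library, or 360 of 6879 in all. Every one of the 360 passed the study's limits of 750 detected genes, 1000 transcripts and 30% mitochondrial counts. The libraries were droplet-based single-cell RNA-sequencing of dissociated tibialis anterior muscle from C57Bl/6 mice (C57BL/6J in the cell annotation and the study's methods), taken 2 or 7 days after the muscle was injured with notexin, a snake venom toxin that destroys myofibres. The whole muscle was digested with collagenase and dispase, its red cells were lysed, and no genetic alteration or sort is named in the sources used here. Each time point was 1 library. The sample labels give females of 7 months for both libraries, as the study's sample list does for the age and its methods for the sex. The cell annotation gives males, of 4 months on day 2 and 7 months on day 7, and the account of the injuries in the methods names old mice. In the inflammatory monocytes 4 Y-linked genes held 433 counts on day 2 and 80 on day 7 and Xist held 0 in both, which goes against the label of female mice. Animal, library, age as far as it differed, and time after injury cannot be told apart in a comparison of these libraries.

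Inflammatory, or classical, monocytes are made in the bone marrow and circulate with the surface antigen Ly6C and the chemokine receptor CCR2, which lets them leave the marrow and follow CCL2 into injured tissue. In injured muscle they enter within the first days, take part in clearing dead fibres, and give rise to macrophages. As monocytes become macrophages in a tissue they typically lose Ly6C, and may gain complement C1q, lipid-handling genes and, under interferon gamma, the class II antigen-presenting molecules.

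The summed counts were 2519349 on day 2 and 556598 on day 7, where a count is 1 sequenced molecule assigned to a gene by its molecular identifier. A median cell held 8968 counts of 2572 genes on day 2 and 5771.5 counts of 1904.5 genes on day 7, with 5.16% and 3.88% of its counts from mitochondrial genes. Levels are given as CPM, the gene's counts divided by all summed counts of the cells and scaled to 1000000, with a 95% Poisson interval in parentheses. Intervals cover counting error only, not the spread between mice, and with 1 library per time point no difference could be tested. A gene was taken as higher or lower when its CPM differed at least 2-fold, with counts under 3 raised to 3.

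Ccr2, the receptor for CCL2, was high on both days, at 813 CPM (778 to 848) on day 2 and 762 CPM (691 to 838) on day 7, with a log2 ratio of day 7 over day 2 of -0.09 (-0.25 to 0.06). It was higher in the inflammatory monocytes than in each of the 5 other monocyte and macrophage labels, which ranged from 203 to 656 CPM on day 2 and from 53.1 to 346 CPM on day 7. Ly6c2, which encodes the Ly6C antigen, stood at 506 CPM (479 to 535) on day 2 and at 108 CPM (82.3 to 139) on day 7, lower by a log2 ratio of -2.23 (-2.63 to -1.86). Of its 60 day 7 counts, 43.3% came from 3 cells. The share of cells with a Ly6c2 count went from 83.3% to 22.6%, and after every cell was thinned to 2000 counts from 52.9% to 11.9%. The Cxcl10+ monocytes exceeded the inflammatory monocytes in Ly6c2 on day 2, at 702 CPM, and on day 7 the other labels lay between 3.46 and 41.4 CPM. In smooth muscle cells, which should hold neither gene and had median counts of 13232 and 8635.5, a Ly6c2 count was found in 3.29% of cells on day 2 and 0.431% on day 7, and a Ccr2 count in 5.26% and 1.29%. Both given markers were thus found in most day 2 cells, whereas on day 7 Ccr2 was found in most cells and Ly6c2 in a minority of them. Neither was particular to the label. A Ccr2 count was found in 94.9% and 84.5% of the inflammatory monocytes on days 2 and 7, and in 85.2% and 46.1% of the other 5 labels. A Ly6c2 count was found in 42.6% and 8.77% of the other 5 labels. The marker lists that accompany the study put Ly6c2, Ccr2 and Vcan under its patrolling monocyte label, so the names inflammatory and patrolling appear exchanged between those lists and the deposited annotation, while the study's text describes its patrolling monocytes as Ly6c2-negative, and the cells the annotation calls patrolling held less Ly6c2 than those it calls inflammatory. The deposited names are used throughout, and in the cells they call patrolling Ly6c2 stood at 60.1 CPM on day 2 and 4.89 CPM on day 7. The cells annotated as dendritic held more Ly6c2 on day 7, at 505 CPM (463 to 550), and less Ccr2, at 357 CPM (322 to 395). Ly6c2 (mm10, chr15:75108158-75111970, minus strand) and its paralog Ly6c1 shared 390 of 403 aligned bases at the 3′ end of their transcripts, so counts between them are uncertain, and Ly6c1 held 12 and 4 counts in these cells.

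**Figure D1:**
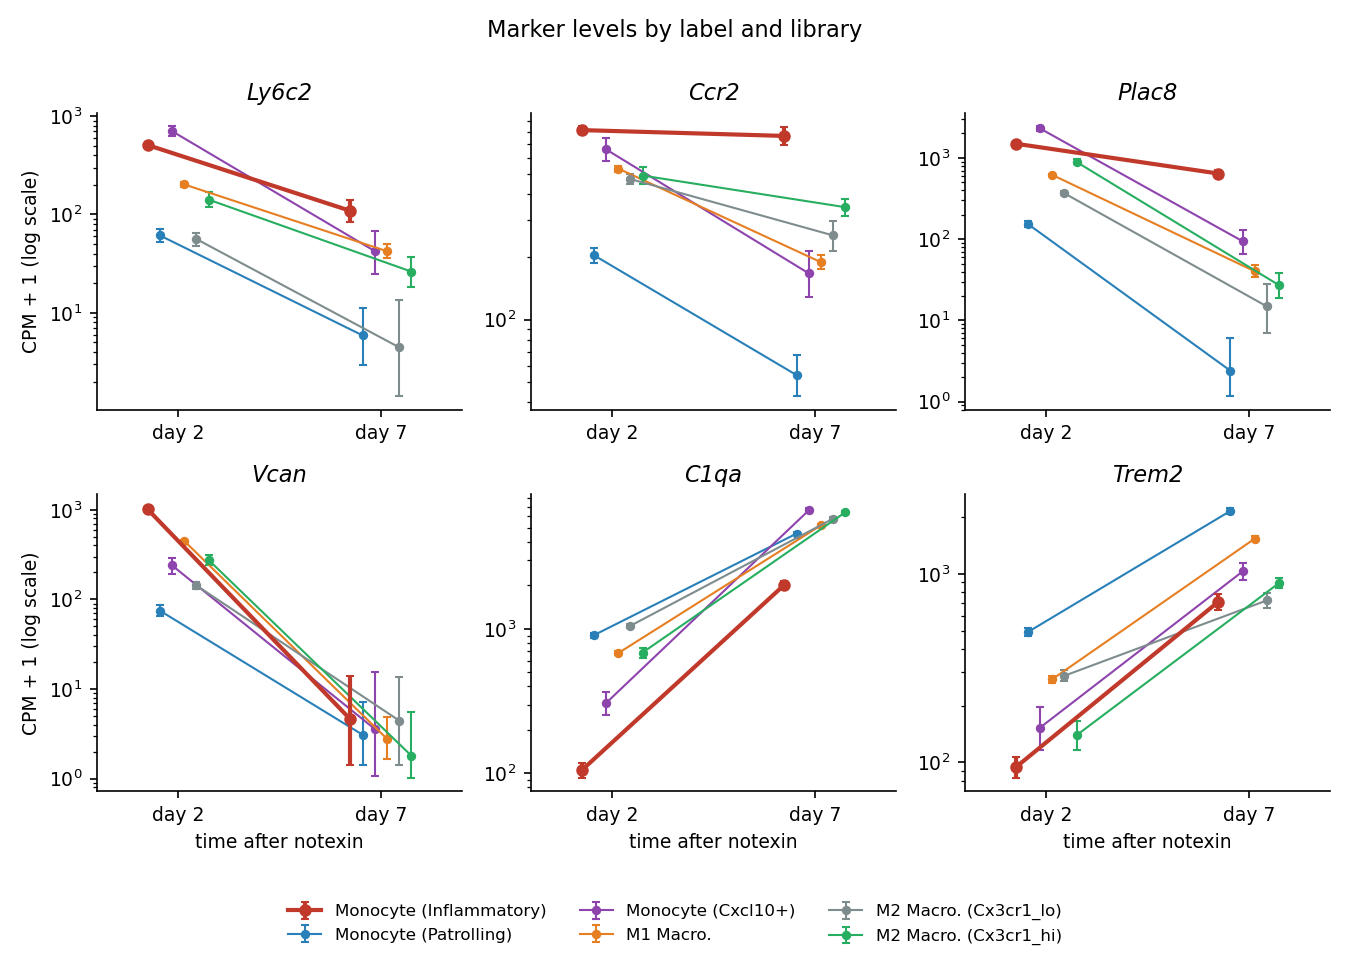
CPM + 1 on a log axis against time after notexin for 6 marker genes, with 1 line per monocyte or macrophage label and 95% counting intervals; each point is the summed cells of 1 label in 1 library. Ccr2 in the inflammatory monocytes is at 813 and 762 CPM and above the other labels, while Vcan is lower on day 7 in every label and C1qa higher.

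The inflammatory monocytes made up 8.68% (7.73 to 9.72, exact binomial interval) of the 3178 annotated cells kept on day 2 and 2.63% (2.10 to 3.24) of the 3196 kept on day 7, a difference of -6.06 percentage points (-7.22 to -4.92). Among the monocytes and macrophages alone their share was 21.4% of 1292 cells on day 2 and 11.1% of 757 on day 7. The share was thus lower on day 7 over either denominator.

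Across the 5106 genes with a mean of at least 20 CPM, 586 (11.5%) were at least 2-fold higher on day 7 than on day 2 in the inflammatory monocytes and 865 (16.9%) at least 2-fold lower, 28.4% in all, and the median log2 ratio was -0.19. When the libraries were scaled by the median of ratios, which lay at -0.14, the counts were 709 higher and 681 lower, so the share of higher genes among those past 2-fold was 51.0% in place of 40.4%. The genes of highest level also differed between the days. On day 2 they were led by Tmsb4x, an actin-binding peptide, and Lyz2, the lysozyme of myeloid cells, and included Fth1, Actb and Vim. On day 7 Cd74, the invariant chain of class II molecules, held the first place, and H2-Ab1, H2-Eb1, H2-Aa and Apoe were among the first 10.

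**Figure D2:**
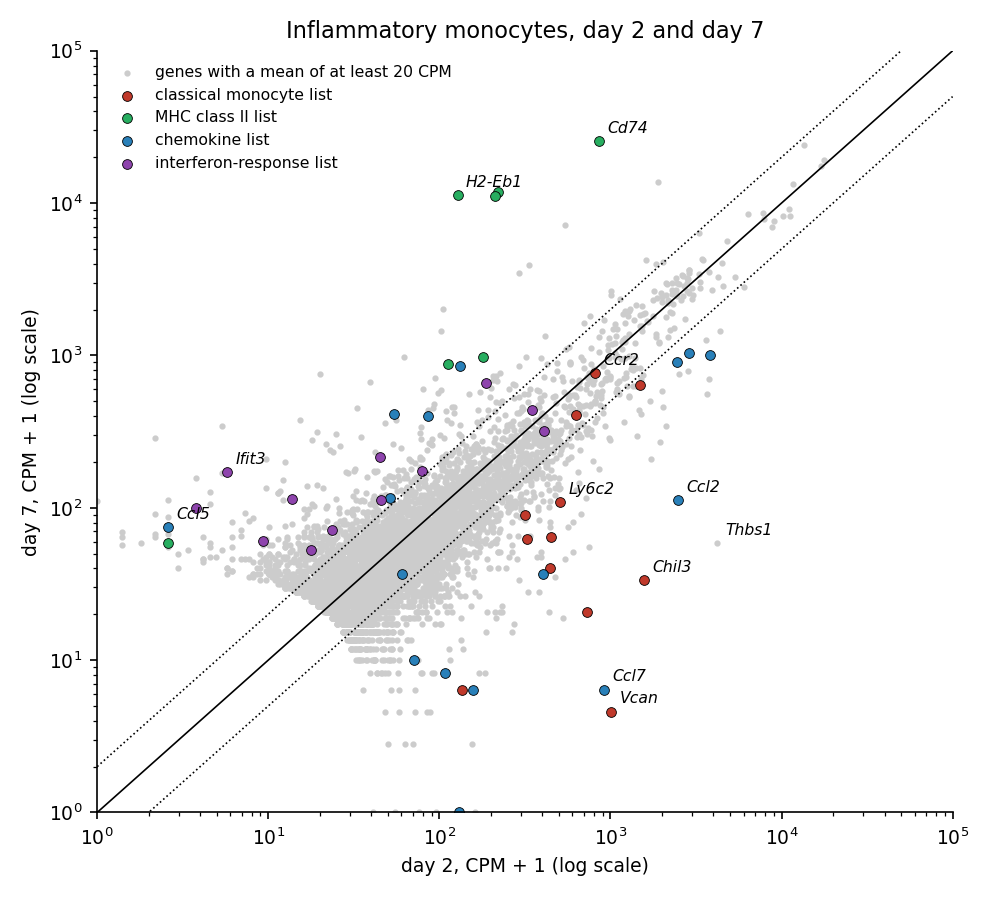
Each point is a gene in the inflammatory monocytes, with its level on day 2 on the x axis and on day 7 on the y axis, both as CPM + 1 on a log scale; coloured points belong to named gene lists. Class II genes lie far above the diagonal, and the classical monocyte genes other than Ccr2 and Ms4a4c lie below it by 2-fold or more.

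Of 12 classical monocyte genes, 10 were at least 2-fold lower on day 7 and none was higher, with a median log2 ratio of -2.62, against 16.9% of all genes lower and a median of -0.19. The exceptions were Ccr2 and Ms4a4c, a membrane protein of the MS4A family, whose log2 ratio was -0.63. Vcan, which encodes the matrix proteoglycan versican (chr13:89655312-89742509), had 2535 counts on day 2 and 2 on day 7, or 1006 CPM (967 to 1046) and 3.59 CPM, and it was detected in 92.0% of cells on day 2 and in 1 cell on day 7. Chil3, a chitinase-like lectin, stood at 1577 CPM (1528 to 1626) and 32.3 CPM (19.2 to 51.1), and 94.4% of its 18 day 7 counts came from 3 cells. Vcan and Chil3 were thus at or near 0 in most day 7 cells.

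The same genes were lower on day 7 in the other labels too. The log2 ratio of Vcan was -7.54 in the inflammatory monocytes and between -4.77 and -7.96 in the other 5 labels. Plac8, a small cysteine-rich protein of monocytes, differed: it stood at 1496 CPM (1448 to 1544) on day 2 and 641 CPM (577 to 712) on day 7, a log2 ratio of -1.22 (-1.38 to -1.06), while in the other labels its log2 ratio lay between -3.98 and -6.19. Ccr2 likewise had log2 ratios between -0.51 and -1.98 in the other labels. On day 7 Plac8 was found in 35.7% of the inflammatory monocytes, and 33.9% of its counts came from 3 cells.

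All 7 class II genes were at least 2-fold higher on day 7, with a median log2 ratio of 5.18, against 11.5% of all genes higher. Class II molecules present peptides to CD4+ T cells, H2-Aa and H2-Ab1 encoding the chains of I-A and H2-Eb1 the beta chain of I-E, and H2-DMa and H2-DMb1 encode the peptide exchanger. Promoters of these genes carry conserved X and Y boxes, at which the transactivator CIITA acts through DNA-bound partners. To show the arrangement, promoters of 3 genes of this group are given from the RefSeq table of build GRCm38.p6, from 250 bases before to 50 after the start: H2-Aa at chr17:34287774-34288073 (minus strand), H2-Eb1 at chr17:34305617-34305916 (plus strand) and H2-DMb1 at chr17:34152941-34153240 (plus strand). Capitals mark matches on either strand to the Y box letters GATTGG or to CTAGNAACTGATGATGCT, the longest stretch that the H2-Eb1 and H2-DMb1 promoters share with 1 base apart (written N), which covers their X box.
H2-Aa: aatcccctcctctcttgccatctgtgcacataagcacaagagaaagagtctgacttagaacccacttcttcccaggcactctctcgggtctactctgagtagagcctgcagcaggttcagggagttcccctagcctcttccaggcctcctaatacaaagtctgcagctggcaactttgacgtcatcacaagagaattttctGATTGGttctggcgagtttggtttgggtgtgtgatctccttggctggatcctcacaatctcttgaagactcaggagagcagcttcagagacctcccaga
H2-Eb1: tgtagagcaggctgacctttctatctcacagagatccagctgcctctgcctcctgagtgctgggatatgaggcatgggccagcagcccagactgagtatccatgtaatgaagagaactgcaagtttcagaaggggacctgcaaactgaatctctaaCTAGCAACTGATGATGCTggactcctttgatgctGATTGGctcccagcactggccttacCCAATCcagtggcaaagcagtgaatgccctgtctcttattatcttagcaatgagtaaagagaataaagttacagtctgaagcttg
H2-DMb1: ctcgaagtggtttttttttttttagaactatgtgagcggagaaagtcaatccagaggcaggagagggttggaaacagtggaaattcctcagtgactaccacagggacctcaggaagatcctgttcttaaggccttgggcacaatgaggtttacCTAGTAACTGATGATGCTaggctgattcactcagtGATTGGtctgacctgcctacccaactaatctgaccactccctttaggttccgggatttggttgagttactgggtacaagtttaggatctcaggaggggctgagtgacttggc

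The Y box letters were matched once in H2-Aa and H2-DMb1 and at 2 places in H2-Eb1, and the shared stretch once in H2-Eb1 and H2-DMb1 by its construction, with no overlap between matches. The table held 4 of the 7 genes, and the fourth, H2-DMa, had 2 promoters with 0 and 1 Y box. Of 32851 promoters of this length, 5292 (16.1%) held the Y box letters and 2 (0.00609%) the shared stretch. The stretch was taken from these promoters, so it says nothing of how rare an X box is, and a match describes letters only.

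H2-Eb1 (chr17:34305867-34316674) had 320 counts on day 2 and 6250 on day 7, or 127 CPM (113 to 142) and 11229 CPM (10952 to 11511), a log2 ratio of 6.47 (6.30 to 6.63). H2-Ab1 stood at 219 CPM (201 to 238) and 11754 CPM (11470.4 to 12042), and H2-Aa at 209.6 CPM (192 to 228) and 11159 CPM (10883 to 11439.9). Cd74 stood at 853 CPM (817 to 889.8) and 25440.3 CPM (25023 to 25863). After thinning, an H2-Ab1 count was found in 17.0% of cells on day 2 and 96.4% on day 7, beside 1.66% and 8.97% of smooth muscle cells. A Cd74 count was already found in 41.7% of cells on day 2, and in 96.4% on day 7, beside 4.30% and 10.8%. The exchanger genes were lower in level, with H2-DMa at 178 and 976 CPM and H2-DMb1 at 111 and 873 CPM. Ciita, the transactivator gene, had 4 counts on day 2 and 32 on day 7, or 1.59 CPM (0.433 to 4.07) and 57.5 CPM (39.3 to 81.2).

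The other labels also held more class II on day 7. The log2 ratio of H2-Eb1 was 6.47 in the inflammatory monocytes, and 4.08 in patrolling monocytes, 2.93 in Cxcl10+ monocytes, 3.89 in M1 macrophages, 3.91 in Cx3cr1_lo M2 macrophages and 1.61 in Cx3cr1_hi M2 macrophages. The inflammatory monocytes had the lowest H2-Eb1 of the 6 labels on day 2, where the others ranged from 190.4 to 3878 CPM, and on day 7 they lay within the range of the others, 3223 to 11854 CPM. RNA in cell-free droplets held 348 CPM of H2-Eb1 on day 2 and 1359 CPM on day 7, so the day 2 level lay under that of the cell-free RNA and the day 7 level far above it. In the cells annotated as dendritic H2-Eb1 stood at 8028 and 9131 CPM.

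**Figure D3:**
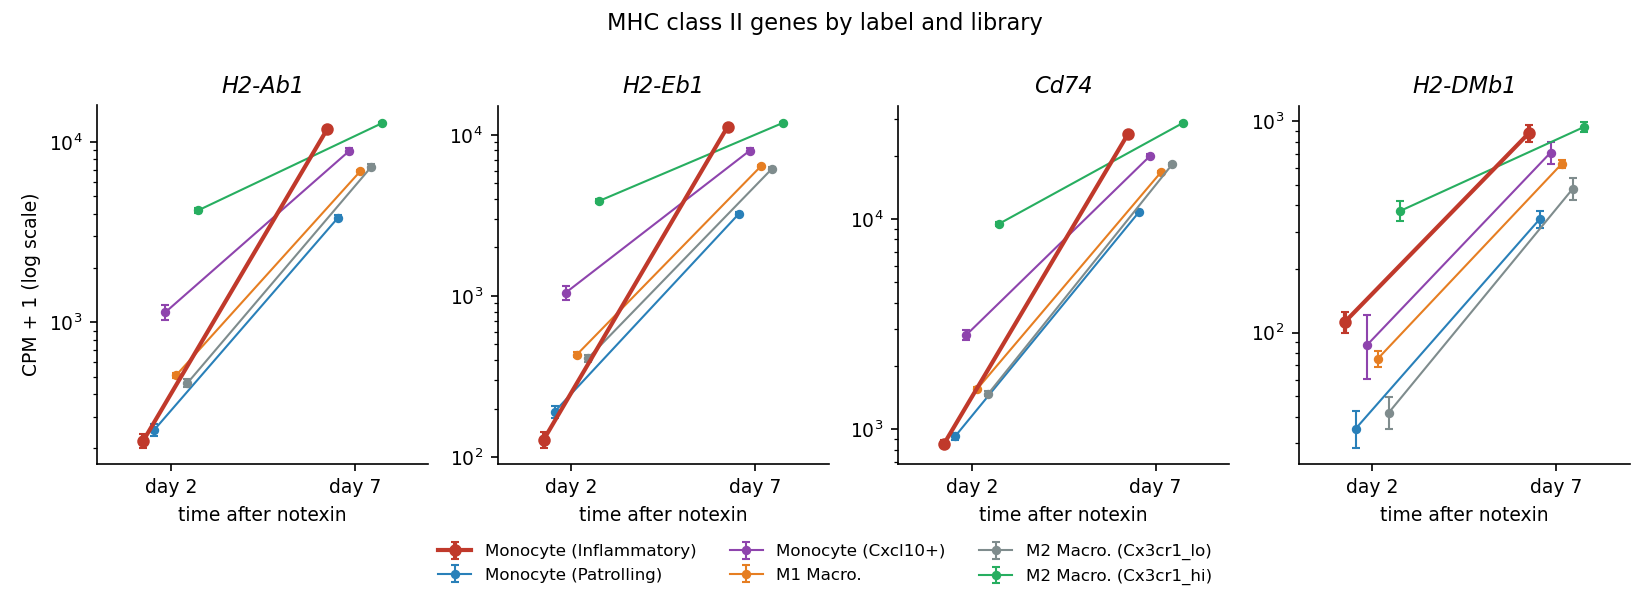
CPM + 1 on a log axis against time after notexin for 4 class II genes, with 1 line per label and 95% counting intervals. The inflammatory monocytes start at 127 CPM of H2-Eb1 on day 2, the lowest of the 6 labels, and reach 11229 CPM on day 7, within the range of the others.

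Macrophage genes were split. Of 8 macrophage core genes, 3 were higher and 2 lower, with a median log2 ratio of 0.73, beside 11.5% higher and 16.9% lower among all genes. The higher 3 were the complement C1q chains: C1qa (chr4:136895917-136898803) stood at 104 CPM (92.2 to 118) on day 2 and 2019 CPM (1903 to 2141) on day 7, and the log2 ratios of C1qb and C1qc were 3.58 and 3.83. On day 2 the C1qa level was under the 137 CPM of the cell-free RNA, and 51.7% of its counts came from 3 cells. Mrc1, the mannose receptor, was lower, at 295 CPM (274 to 317) and 106 CPM (80.7 to 137), as was Fcgr1, a receptor for IgG, though the log2 ratio of Mrc1 went from -1.48 to -0.83, under 2-fold, when each cell was thinned to 2000 counts. The lysosomal marker Cd68 stood at 654 and 686 CPM, and Csf1r, the receptor for the survival factor CSF1, at 379.9 and 580.3 CPM. All 3 C1q chains were still lower than in each of the other 5 labels on day 7, where C1qa ranged from 4568 to 6609 CPM.

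Among 15 genes of the Trem2 and lipid-handling list, 9 were higher and 1 lower, with a median log2 ratio of 1.84, against 11.5% and 16.9% of all genes. The summed level of the list was 10844 CPM on day 2 and 23311 CPM on day 7, while it went from 5649 to 15013 CPM in the cell-free RNA and from 5793 to 20161 CPM in smooth muscle cells, so the list was higher on day 7 in all 3. Trem2, a lipid-sensing receptor, stood at 93.3 CPM (81.7 to 106) and 709.7 CPM (641 to 783), and Apoe, which carries cholesterol out of cells, at 1898 CPM (1845 to 1953) and 13683 CPM (13378 to 13994). The cell-free RNA held 62.5 and 258 CPM of Trem2 and 713 and 9534 CPM of Apoe, and after thinning an Apoe count was found in 13.2% and 54.7% of smooth muscle cells, beside 68.1% and 90.5% of the inflammatory monocytes. Abcg1, a cholesterol exporter, had a log2 ratio of 3.66, which became 4.46 after thinning, and Gpnmb, a lysosomal glycoprotein, one of 4.11. Of the day 7 Gpnmb counts 62.9% came from 3 cells, and its log2 ratio was 3.15 after thinning and 3.42 as a mean over cells. That of Trem2 went from 2.93 to 2.11 after thinning. The lower gene was Fabp5, a fatty-acid chaperone, at 1206 and 367 CPM. Spp1, or osteopontin, stood at 1847 CPM (1794 to 1900.3) and 1329.5 CPM (1235 to 1429), but 565 of its 740 day 7 counts came from 1 cell, and its log2 ratio of -0.47 became -1.37 when each cell was thinned to the same number of counts and -2.56 without the cells that carry markers of other cell types. The Spp1 total was thus set largely by 1 cell on day 7.

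Of 18 lysosomal genes 5 were higher and 1 lower, with a median log2 ratio of 0.48, so that 6 were past 2-fold, not far from the 28.4% of all genes. Acp5, an acid phosphatase, had 22 and 116 counts and a log2 ratio of 4.58 (3.91 to 5.31), which became 3.63 after thinning, and Lipa, which hydrolyses cholesteryl esters, one of 2.93 (2.59 to 3.27). The lower one was Ctsl, a cathepsin, at a log2 ratio of -3.04. Of 7 genes for uptake of dying cells, 1 was higher and 1 lower, and of 9 genes of haem and iron handling 2 were higher and none lower. Both counts are near the 28.4% of all genes past 2-fold, so they set neither list apart. The higher uptake gene was Axl, a receptor for phosphatidylserine bridges, at 14.3 CPM (10.0 to 19.8) and 374 CPM (325 to 428). Hmox1, which breaks down haem, stood at 337 and 300.0 CPM.

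Receptor and lipoprotein genes outside the lists were also among those that met the rule for naming. Cd72 (chr4:43446462-43454628) encodes a lectin-like coreceptor best known from B cells. Cd72 had 3 counts on day 2 and 159 on day 7, or 1.19 CPM (0.246 to 3.48) and 286 CPM (243 to 334), a log2 ratio of 7.91 (6.33 to 10.20). After thinning the ratio was 5.72, where the 3-count limit of day 2 stands for a higher CPM in a smaller sum. Slamf9, a SLAM family receptor, had 11 and 190 counts, and Pltp, which transfers phospholipids between lipoproteins, 48 and 419 counts. On day 7 Cd72 was in 47.6% of the inflammatory monocytes, Slamf9 in 70.2% and Pltp in 79.8%, and all were present in the other labels as well. The cell-free RNA also held more of them on day 7, from 3.27 to 86.4 CPM of Cd72, from 5.24 to 34.4 CPM of Slamf9 and from 6.88 to 165 CPM of Pltp, each under the level in the day 7 cells.

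Chemokine genes moved in both directions, with 5 of 16 higher and 10 lower and a median log2 ratio of -1.70, beside 11.5% higher and 16.9% lower among all genes. The ligands of CCR2 were lower. Ccl2 stood at 2487 CPM (2426 to 2549) on day 2 and 111 CPM (85.4 to 143) on day 7, and Ccl7 at 919.7 CPM (883 to 958) and 5.39 CPM (1.11 to 15.8), with 3 counts on day 7. The cell-free RNA held 650 CPM of Ccl7 on day 2 and 73.1 CPM on day 7. After thinning the log2 ratio of Ccl7 in the inflammatory monocytes went from -7.41 to -5.39. There too the 3-count limit of day 7 stands for a higher CPM in a smaller sum. Ccl12, another CCR2 ligand, had 395 and 3 counts. Higher on day 7 were Ccl3 and Ccl4, attractants of monocytes and T cells, at log2 ratios of 2.24 (1.96 to 2.52) and 2.70 (2.49 to 2.90), together with Ccl5, Cxcl10 and Cxcl16. Of the day 7 Ccl4 counts, 45.9% came from 3 cells. Cxcl10 was found in 22 of 276 cells on day 2 and 12 of 84 on day 7, and 3 cells held 80.3% and 68.8% of its counts, so its direction rests on few cells. Of the 62 Ccl2 counts of day 7, 67.7% came from 3 cells, and the log2 ratio of Ccl3 was 1.48 without cells that carry markers of other cell types.

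Of 5 cytokine and related inflammatory genes, 4 were lower and 1 higher, with a median log2 ratio of -1.76, where 16.9% of all genes were lower and 11.5% higher. Il1b stood at 1708 CPM (1658 to 1760.2) and 503 CPM (446 to 566), and the share of cells with an Il1b count was 80.4% and 48.8%, beside 27.6% and 3.02% of smooth muscle cells. After thinning the shares were 65.2% and 35.7%, beside 5.63% and 0.897%. Ptgs2, the inducible prostaglandin synthase, Nlrp3, the inflammasome sensor, and Osm, oncostatin M, were lower, with 565 and 11, 549 and 28, and 1075 and 79 counts. Tnf went the other way, at 40.9 CPM (33.4 to 49.6) and 171 CPM (138 to 209). Tnf was found in 63 of 276 cells and in 34 of 84, and 35.8% of its day 7 counts came from 3 cells. Over the summed cells Il1b was therefore lower and Tnf higher.

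Receptors for microbial and damage signals were mostly lower, 7 of 9 past 2-fold and none higher, with a median log2 ratio of -2.44, against 16.9% of all genes lower. Cd14, a coreceptor for lipopolysaccharide, stood at 3785 CPM (3709 to 3861) and 697 CPM (629 to 770.0). Clec4e, or Mincle, which senses dead cells and mycobacteria, stood at 732 CPM (699 to 766) and 19.8 CPM (9.87 to 35.4), and Msr1, a scavenger receptor, had 1323 and 10 counts. The cell-free RNA also held less of both on day 7, from 207 to 4.03 CPM of Clec4e and from 101 to 8.05 CPM of Msr1. Trem1, an amplifier of inflammation, had 387 counts on day 2 and 1 on day 7. Tlr4 was low on both days, at 27.8 CPM (21.7 to 35.1) and 16.2 CPM (7.39 to 30.7). Of 5 complement genes outside C1q, 4 were lower and none higher, again against 16.9% of all genes, among them C5ar1, the receptor of C5a, at 539 and 44.9 CPM.

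Of 10 matrix and protease genes, 7 were lower and 2 higher, with a median log2 ratio of -2.48, and among all genes 16.9% were lower and 11.5% higher. Thbs1, or thrombospondin 1, stood at 4180.1 CPM (4101 to 4261) and 57.5 CPM (39.3 to 81.2). Fibronectin, Fn1, stood at 1940.2 CPM (1886 to 1995) and 268 CPM (226 to 314), and the inhibitor Timp1 had 665 and 8 counts. The higher 2 were Mmp12, the macrophage elastase, with 9 and 70 counts, and Timp2, with 60 and 169. Of 13 adhesion and trafficking genes 6 were lower and 3 higher, read against the same shares, the integrin chains Itgam and Itgax moving apart at log2 ratios of -2.28 and 4.10. The ratio of Itgax was 4.83 after thinning. Ccr1, a receptor for CCL3 and CCL5, was lower, with 1092 and 11 counts.

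Of 14 glycolysis genes 5 were lower and none higher, with a median log2 ratio of -0.66, beside 16.9% of all genes lower and a median of -0.19. They were the glucose carrier Slc2a1, the lactate exporter Slc16a3, and the enzymes Gapdh, Pgam1 and Pkm. Pkm, the pyruvate kinase, stood at 1505 CPM (1458 to 1554) and 411 CPM (359.9 to 468). Ldha, lactate dehydrogenase, stood at 509 and 307 CPM, under a 2-fold difference.

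Among 6 growth factor genes 2 were higher and 2 lower, where 28.4% of all genes were past 2-fold. Vegfa, which drives vessel growth, stood at 233 CPM (214 to 252) and 19.8 CPM (9.87 to 35.4), and Pdgfb, a mitogen for mural cells and fibroblasts, had 4 and 62 counts. Igf1, a growth factor for muscle, had 0 counts on day 2, which allows up to 1.19 CPM by the limit of 3 counts, and 17 on day 7, or 30.5 CPM (17.8 to 48.9), where the other labels held 92.1 to 301 CPM. Of 10 alternative activation genes 3 were higher and 3 lower, read against the same 28.4%. Retnla, a resistin-like secreted protein, had 0 counts on day 2 and 61 on day 7, of which 86.9% came from 3 cells. Of the members past 2-fold in these lists, equal numbers were thus higher and lower.

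Interferon-responsive genes were higher, 10 of 12 past 2-fold and none lower, with a median log2 ratio of 1.73, against 11.5% of all genes higher, the share that also stands beside the next lists. Other cells moved the same way: after thinning, at least 2 counts of the list were found in 44.9% of the inflammatory monocytes on day 2 and 76.2% on day 7, in 41.6% and 62.3% of the other 5 labels, and in 29.8% and 65.5% of smooth muscle cells. Ifit3 had 12 counts on day 2 and 95 on day 7, or 4.76 CPM (2.46 to 8.32) and 171 CPM (138 to 209). Isg15, a ubiquitin-like modifier, stood at 345 CPM (322 to 369) and 440.2 CPM (387 to 499), under 2-fold. Of 6 nonclassical monocyte genes 5 were higher and none lower, among them Cx3cr1, the fractalkine receptor, at 21.8 CPM (16.4 to 28.4) and 237 CPM (198 to 281), and Nr4a1, a nuclear receptor that nonclassical monocytes require, at 171 and 571 CPM. The cell-free RNA held 1.64 and 42.9 CPM of Cx3cr1 and 175 and 286 CPM of Nr4a1, so on day 2 the Nr4a1 level was about that of the cell-free RNA. Eno3, an enolase that muscle also expresses, was under the minimum level and is not in the count. Spn, or CD43, had 20 and 24 counts and a log2 ratio of 2.44 (1.52 to 3.37), which became 1.49 after thinning, while that of Cx3cr1 went from 3.44 to 2.85. Of 11 immediate-early and heat-shock genes, which also respond to tissue dissociation, 5 were higher and none lower. Hspa1a and Hspa1b, inducible heat-shock proteins, stood at 541 and 331 CPM on day 2 and at 7142 and 3929 CPM on day 7. After thinning, at least 2 counts of these 2 genes were found in 32.6% and 86.9% of the inflammatory monocytes on days 2 and 7. The shares were 36.5% and 62.6% in the other 5 labels, and 94.7% and 47.5% in smooth muscle cells, which moved the other way. The part of dissociation in the day differences was not tested. Of 15 cell cycle genes only Pcna reached the level for comparison, under 2-fold.

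**Figure D4:**
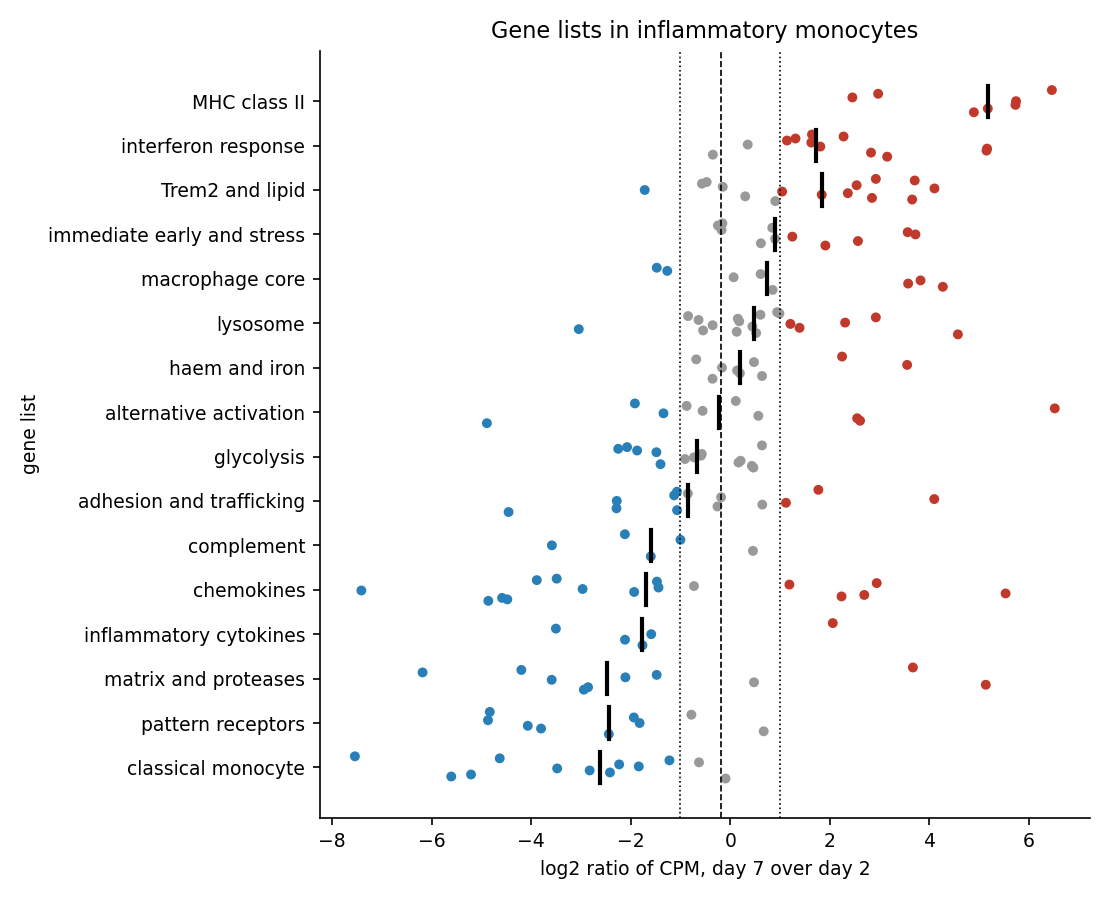
Log2 ratio of CPM, day 7 over day 2, in the inflammatory monocytes for each tested gene of each list, with the list's median. The class II list has a median of 5.18 and the classical monocyte list of -2.62, beside -0.19 over all 5106 genes.

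The inflammatory monocytes were next set against the sum of the other 5 monocyte and macrophage labels in the same library. The labels were drawn from these genes, so the values describe the label and are no test of it. On day 2, 151 of 5085 genes (2.97%) were at least 2-fold higher in the inflammatory monocytes and 192 (3.78%) lower, 6.75% in all. Classical monocyte genes made up 9 of the higher ones and none of the lower, of 12. Their summed level was 8417 CPM (8304 to 8531) in the inflammatory monocytes, 8097 CPM (7819 to 8383) in the Cxcl10+ monocytes and between 1910 and 4197 CPM in the other 4 labels, so 1 other label came close to it. Hp, haptoglobin, stood at 441 CPM against 92.7 CPM, a log2 ratio of 2.25 (2.13 to 2.37). Ifitm6, an interferon-induced membrane protein of monocytes, had a log2 ratio of 2.31, and Itgal, the alpha chain of LFA-1, of 2.35. Of 10 macrophage core genes 7 were lower, of 15 Trem2 and lipid genes 10, and of 6 class II genes 4, with none higher in any of the 3 lists. Gas6, a bridge to dying cells, stood at 1.98 CPM against 64.9 CPM, Pf4, a platelet-type chemokine, at 403 CPM against 4954 CPM, and Ccl8 at 70.3 CPM against 1870.2 CPM. In the inflammatory monocytes all 3 lay under the cell-free RNA, which held 18.7, 930 and 386 CPM. Of the other labels the 468 M1 macrophages gave the most counts, 6771396.

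On day 7, 134 of 5144 genes (2.60%) were higher in the inflammatory monocytes than in the other labels and 201 (3.91%) lower, 6.51% in all. Plac8 led with 357 counts against 209 in the much larger sum of the others, a log2 ratio of 4.42 (4.17 to 4.67), followed among the genes that met the naming rule by S100a4 and Ccr2 at 2.04 and 1.99. Lsp1, a leukocyte actin-binding protein, and S100a6 were higher at 1.82 and 1.53. Of 9 classical genes tested 7 were higher, including Ly6c2 at 1.95 and Chil3 at 2.06, and none lower. The Chil3 ratio rests on 3 cells with 94.4% of its counts, and the share of cells with a Chil3 count was 4.76% in the inflammatory monocytes and 4.01% in the others. The summed level of all 12 was 2230 CPM (2107 to 2357) in the inflammatory monocytes and between 269.5 and 1227 CPM in the other 5 labels, while the cells annotated as dendritic held 2279 CPM (2188 to 2372), with overlapping intervals. The class II list, higher in all its members between the days, did not set the inflammatory monocytes apart from the sum of the other labels. None of 7 genes was past 2-fold on day 7, with a median log2 ratio of 0.57. The single labels within that sum differed, as given above for H2-Eb1. Of 10 macrophage core genes 5 were lower, of 15 Trem2 and lipid genes 8, and of 20 lysosomal genes 10. Apoe stood at 13683 CPM in the inflammatory monocytes and between 43677 and 50135 CPM in the other labels. Pf4 and Ccl8 were again lower, Pf4 in 3 cells with 20 counts, and Hspa1a and Hspa1b were higher at 1.23 and 1.39. Pf4 at 35.9 CPM and Ccl8 at 8.98 CPM again lay under the cell-free RNA, which held 50.9 and 60.8 CPM. Leaving out cells with markers of other cell types moved the log2 ratio of Pf4 from -3.40 to -5.50 and that of Ccl8 from -5.05 to -4.19. Without cells that carry markers of other cell types the log2 ratios of Chil3, Ly6c2 and Plac8 were 4.13, 3.004 and 3.73, and 243 genes were higher and 277 lower, with 55 inflammatory monocytes and 209 of the 673 other cells left.

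By their levels over 6472 genes, as log2(CPM + 10), the day 2 inflammatory monocytes were most like the M1 macrophages of the same library (Pearson r = 0.971) and then its Cx3cr1_hi M2 macrophages (0.967). Their likeness to the day 7 inflammatory monocytes was 0.851, the seventh in order, after all the other monocyte and macrophage labels and the dendritic cells of day 2. The day 7 inflammatory monocytes were most like the M1 macrophages of day 7 (0.954) and its Cx3cr1_hi M2 macrophages (0.952). For these day 7 cells the inflammatory monocytes of day 2 had rank 11. Of the day 2 labels, the Cx3cr1_hi M2 macrophages (0.888), Cxcl10+ monocytes (0.862), M1 macrophages (0.856) and dendritic cells (0.853) came before them. These correlations are across genes, which are not independent, and labels of 1 library share its cell-free RNA and preparation.

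Within the day 7 inflammatory monocytes the cells were not alike. After every cell was thinned to 2000 counts, a cell held a median of 16 counts of the 12 classical genes on day 2 (range 3 to 43) and 3 on day 7 (0 to 30). The 3 C1q genes had a median of 0 on day 2, with at least 2 counts in 30 of 276 cells, and of 9 on day 7, with at least 2 in 62 of 84. Class II counts had a median of 1 on day 2 (0 to 50) and of 126.5 on day 7 (1 to 241). On day 7, 45 cells held at least 2 counts of both the classical and the C1q genes, 21 of the classical genes only, 17 of C1q only and 1 of neither. In 223 smooth muscle cells of day 7, 2 held at least 2 classical counts and 1 at least 2 C1q counts.

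The day 7 cells with the most classical counts were set beside the rest. In 10 of the 84 cells the classical genes held 10 counts or more, a level reached by 240 of 276 cells on day 2. C1q was at 0 in 9 of these 10, and their class II counts had a median of 15.5 (1 to 175), against a median of 135 (18 to 241) in the other 74, whose C1q counts had a median of 12.5. The 10 cells also held more heat-shock RNA, with a median of 61.5 counts (0 to 113) of Hspa1a and Hspa1b against 13 (0 to 107) in the other 74 and 1 (0 to 19) in the 240 cells of day 2, and the part of dissociation in this was not tested. The limit of 10 was set after the counts were seen, and no test was made of the cells it parts. Over single cells the Spearman correlation of classical and C1q counts was -0.24 on day 2 and -0.46 on day 7, and that of C1q with Trem2-list counts 0.18 and 0.54, which are descriptions, since the cells of a library share its tissue and preparation and each cell's counts sum to a fixed total.

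**Figure D5:**
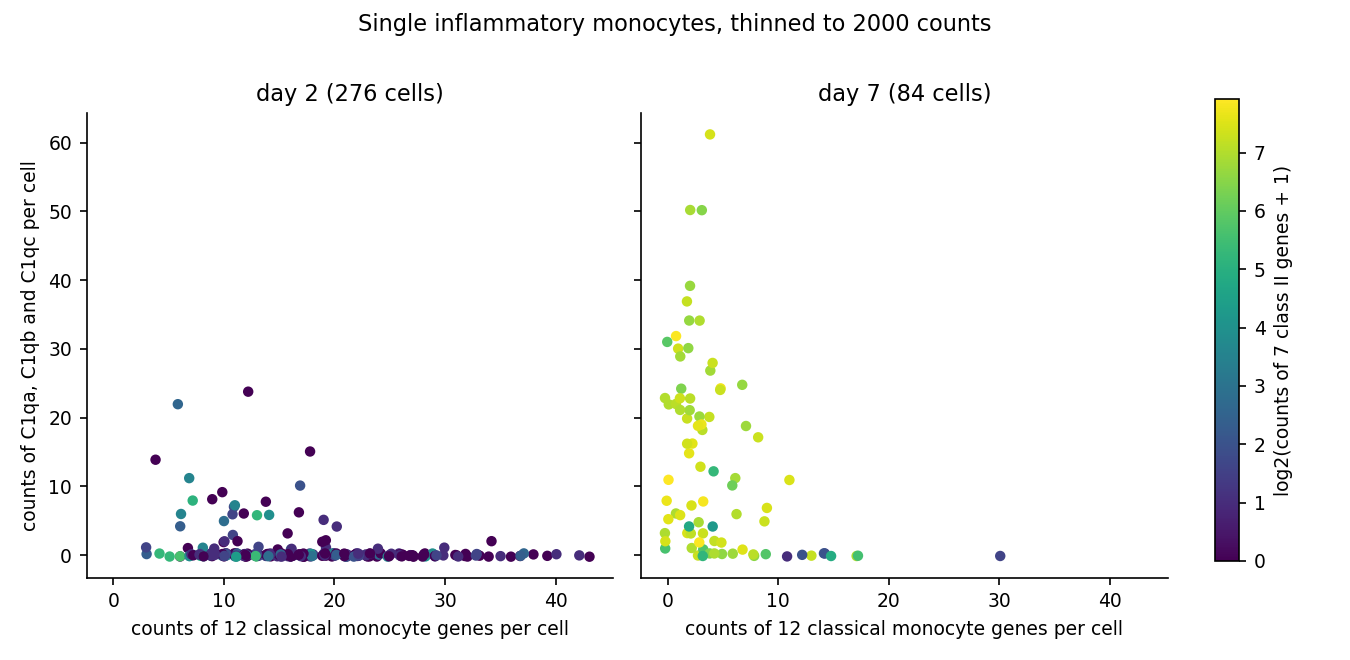
Each point is 1 inflammatory monocyte thinned to 2000 counts, with its counts of 12 classical monocyte genes on the x axis and of C1qa, C1qb and C1qc on the y axis, coloured by log2 of its class II counts + 1. On day 2 most cells lie at 0 C1q counts, and on day 7 most cells hold few classical counts, with 10 cells at 10 classical counts or more.

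Genes of other cell types were present at low levels. Of the 8 dendritic cell genes, the summed level was 11.1 CPM on day 2 and 79.1 CPM on day 7, against 764 and 1389 CPM in the cells annotated as dendritic, and Zbtb46, Siglech and Itgae were at 0 on both days. The 7 neutrophil genes summed to 91.3 and 73.7 CPM, the 5 endothelial to 47.2 and 34.1 CPM, and the 6 T and NK cell genes found in the files to 0 and 5.39 CPM. Myofibre genes stood at 10.3 CPM on day 2 and 366.5 CPM on day 7, where the cell-free RNA held 393 and 14596 CPM, and genes of fibro-adipogenic progenitors at 20.2 and 201 CPM. At least 3 counts of any such list were found in 22 of 276 cells and 29 of 84. Without those cells 656 genes were higher and 935 lower between the days, in place of 586 and 865. Without the 4 and 10 cells that held at least 2 dendritic counts the numbers were 609 and 886. SoupX, the authors' correction for cell-free RNA, took away 2.89% of the counts on day 2 and 2.46% on day 7, and with its values 571 genes were higher and 882 lower.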

How the data were processed

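Single-cell libraries were prepared by the authors with 10x Chromium v3 chemistry and aligned to mm10. The submitters' processing notes name Cell Ranger 3.1.0 and Seurat 3.1.5, while the header of the deposited matrices gives Cell Ranger 3.0.1. Each library was deposited as a matrix of counts, that is unique molecules per gene and cell, and as a matrix of estimated counts that the authors had corrected for cell-free RNA with SoupX, together with a table of cell annotations. The authors removed putative doublets with DoubletFinder and drew the annotations from a larger integrated collection, and no doublet caller was run here. Levels rest on the uncorrected counts, so that intervals apply to whole molecules.

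Annotated cells were kept if they had 750 genes or more, 1000 transcripts or more and a mitochondrial share of 30% or less, and counts were summed per label and library. Levels have exact Poisson intervals, ratios exact conditional binomial intervals and shares exact Clopper-Pearson intervals, at 95%. Counts under 3 were raised to 3 before a ratio was formed. Genes with a mean of at least 20 CPM over both sums were compared, and 2-fold was the limit for higher and lower. Cells are not replicates, and with 1 library per time point no p-value was computed. The 31 gene lists held 305 entries, 2 of them absent from the gene names of the files. The members and the lists were chosen with earlier results of these data known. Genes outside the lists were named if they were among the 10 largest or 10 smallest ratios of a comparison, with at least 100 counts in a sum and a count in at least 20% of its cells, or among the 10 highest levels of a library, leaving out mitochondrial, ribosomal and haemoglobin genes and, between the days, myofibre genes. Some genes that met this rule are not reported here.

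Cell-free RNA was measured in barcodes of 1 to 100 counts. No barcode of an inflammatory monocyte was in both libraries. Coordinates are from GENCODE release M21, which matched 27645 of 27998 gene identifiers. On simulated data for the day comparison, with 5106 genes, 96.2% of intervals held the true ratio. The simulated sums were Poisson draws, the model behind the intervals. The share therefore checks the computation only, and not intervals for counts that gather in few cells. Alternatives were corrected counts, no or stricter limits on cells, means over cells, median-of-ratios scaling, thinning to 2000 counts, minimum levels of 5 and 50 CPM, and leaving out cells with markers of other cell types; leaving out cells with dendritic markers was added after the data were seen. Analyses used Python 3.11.15, numpy 2.4.6, pandas 2.3.3 and scipy 1.17.1.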

Additional observations from a re-analysis of the deposited data

How the results depend on the processing

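No paired analysis was possible because each time point had 1 library. The number of genes past 2-fold changed with the minimum level, which also sets how many are tested, 2758 and 8375 between the days at 50 and 5 CPM in place of 5106. Between the days 250 genes were higher and 513 lower at a minimum of 50 CPM, and 1548 were higher and 1214 lower at 5 CPM, so the share of higher genes among those past 2-fold went from 40.4% to 32.8% and 56.0%. Between labels on day 2, 78 were higher and 84 lower at 50 CPM and 287 and 575 at 5 CPM. On day 7 the numbers were 52 and 76 at 50 CPM, 450 and 514 at 5 CPM, 393 and 395 when cells were thinned to 2000 counts, and 243 and 277 without cells that carry markers of other cell types. The day 2 share of inflammatory monocytes was 11.6% under stricter limits on cells and 21.4% of monocytes and macrophages, and the day 7 share was 11.1% of the latter. The day difference was then -9.11 and -10.3 percentage points. The log2 ratio of Hbb-bs between labels on day 2 turned to 0.25 without cells that carry markers of other cell types, and that of Cxcl1 on day 7 to -0.42 after thinning. Of 6760 gene values under the alternatives 278 moved by 1.5-fold or more, among them the day ratio of Vcan, which was -5.87 after thinning, where the 3-count limit of day 7 stands for a higher CPM in a smaller sum. Other causes were not tested. Of 308 named gene ratios past 2-fold, 20 were under 2-fold after thinning, 16 as means over cells, 15 without cells with markers of other cell types, 8 under median-of-ratios scaling, 7 without cells with dendritic markers, 5 under stricter limits and 1 with corrected counts. The 84 cells of day 7 and their lower depth limit what can be read of genes near the 20 CPM minimum.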
